A study of Mus musculus with 23 samples.

Results

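The cortex of mice carrying the G34W substitution was compared with that of wild-type (WT) mice at 10 weeks of age. The samples were chosen by their genotype and age labels, which gave 2 G34W animals and 6 WT animals of the 22 animals in the series. G34W mice were heterozygous for H3f3a with tryptophan in place of glycine 34 (+/G34W), and WT mice carried no substitution (+/+). The labels give no strain. G34W replicate 2 was labelled female and the other 7 animals male, so in that animal sex and genotype cannot be told apart. Total RNA of pulverised cortex was sequenced after ribosomal RNA depletion, and counts per gene were deposited. Mice of the same age with valine (G34V, 3 animals) or arginine (G34R, 3 animals) at the same residue, also heterozygous, shared the fit that estimated the spread between animals. WT replicate 3 was the sum of 2 libraries of 1 animal, which makes 9 libraries of 23 in the series.

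H3f3a encodes histone H3.3, a variant that is placed into chromatin outside DNA replication, mainly at active genes and regulatory elements. Glycine 34 lies close to a lysine whose methylation by SETD2 and the NSD enzymes marks transcribed and intergenic chromatin and is read by the DNA methyltransferase DNMT3A. Substitutions of this glycine are known from human tumours, arginine and valine from gliomas of the cerebral hemispheres and tryptophan from giant cell tumour of bone.

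H3f3a itself (GRCm38 chromosome 1, 180800832 to 180813943, minus strand) was examined first. It was at 43.5 and 36.7 CPM (read counts scaled to equal library size) in the 2 G34W animals, against a lowest value of 39.8, a median of 42.3 and a highest of 47.4 CPM in the WT animals. The groups overlapped, and the log2 fold change was -0.11 (SE 0.0856, edgeR quasi-likelihood test, adjusted p = 0.542). Gene counts do not resolve single codons, but 1 annotated H3f3a-like gene carries a tryptophan codon at this residue. The mouse annotation holds many processed pseudogenes of H3f3a, and 20 of those in the count table aligned over at least 300 bases. Only Gm3835 (chromosome 8, 72429550 to 72429952, minus strand) had TGG at codon 34, and 17 had GGG, the glycine codon of H3f3a. Its annotated transcript was 95.5% identical to the H3f3a coding sequence over the alignment, with 18 single-base differences. The stretch around codon 34 is shown for both genes because over these 81 bases they differ only at that codon. The capitals mark codon 34, and the positions are bases 63 to 143 of the H3f3a coding sequence, counted from the A of its start codon.

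H3f3a: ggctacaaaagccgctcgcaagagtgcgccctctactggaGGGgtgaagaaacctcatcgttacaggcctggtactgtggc
Gm3835: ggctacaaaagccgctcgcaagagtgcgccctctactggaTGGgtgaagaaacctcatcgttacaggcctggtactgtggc

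The difference was G103T, from the H3f3a base to the Gm3835 base. Among annotated transcripts the Gm3835 stretch occurred in 1 gene and the H3f3a stretch in 5 genes, H3f3a and 4 of its pseudogenes. The sequences are those of the GENCODE annotation of GRCm38.

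Gm3835 had 40 reads in G34W replicate 1 and 60 reads in G34W replicate 2, against 0 reads in each of the 6 WT animals. It had 0, 1 and 0 reads in the G34V animals and 0, 0 and 2 in the G34R animals. Both G34W animals stood apart from every other animal of this age. Set against a floor of 3 counts over the WT group, Gm3835 was at least 161-fold higher in G34W (edgeR adjusted p = 0.00102). The adjusted p was 0.0037 with replicate 1 alone and 0.0101 with replicate 2 alone. Direct comparison also passed the test for G34W against G34V (adjusted p = 0.017) and against G34R (adjusted p = 0.00615). Per 1000 reads assigned to H3f3a, Gm3835 had 33.5 and 38.8 reads in the G34W animals. Reads of near-identical genes can be assigned to one another by the counting, and whether these reads came from the edited H3f3a allele was not tested. H3f3a-ps2, a pseudogene with the glycine codon, was at 7.89 and 8.67 CPM in G34W, against 6.68 to 7.55 CPM in WT, and did not pass (log2 fold change 0.24, SE 0.0972, adjusted p = 0.219). Per 1000 reads assigned to H3f3a, it had 182 and 236 reads in the G34W animals, against 146 to 177 in WT. The G34V animals were at 218 to 237 and the G34R animals at 216 to 235. In this measure every animal with a substitution was above every WT animal.

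**Figure D1:**
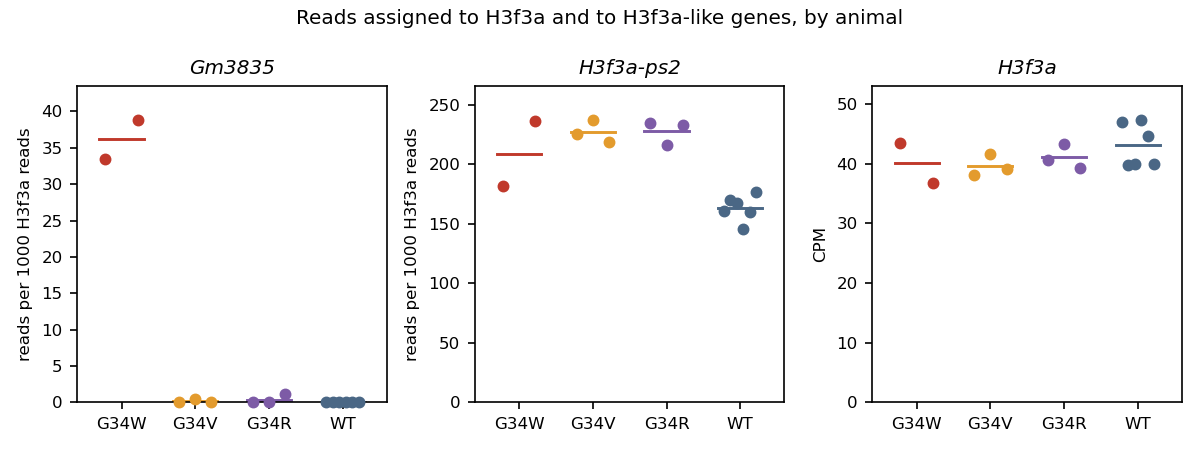
Reads assigned to Gm3835 and to H3f3a-ps2 per 1000 reads assigned to H3f3a, and the H3f3a level in CPM, with 1 point per animal and a line at each group mean (2 G34W, 3 G34V, 3 G34R and 6 WT animals). Gm3835 stood at 33.5 and 38.8 in the G34W animals and at 0 in the 6 WT animals, while H3f3a overlapped between the groups. H3f3a-ps2 was higher in every G34W, G34V and G34R animal than in any WT animal.

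The 2 G34W libraries differed in composition. Structural RNA genes (7SL, 7SK, RNase P, ribosomal and other small structural RNAs, mitochondrial ones included) took 33.3% of the counts in replicate 1 and 17.2% in replicate 2, against 16.1% to 22.4% in the WT libraries. Nuclear protein-coding genes took 61.1% and 76.7%, against 71.8% to 77.8%. Total counts were 32.3 and 41.4 M (M, mega), against 36.5 to 90.1 M. Over 12612 genes of at least 5 CPM, the SD of the log2 deviation from the WT mean was 0.318 in replicate 1 and 0.230 in replicate 2, against 0.168 to 0.240 in the WT animals. Replicate 1 was outside the WT range in these 4 measures, and replicate 2 was inside it.

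Markers of tissue next to the cortex also varied. Ttr, the transthyretin gene that marks choroid plexus, was at 5.76 CPM of all counts in replicate 1 and 166 in replicate 2, against 106 to 801 in the WT libraries. The 17 choroid plexus markers tested summed to 232 and 539.5 CPM, against a lowest sum of 492, a median of 963 and a highest of 1723 CPM in WT, with Slc4a5 at 0 in replicate 1. None of the 17 passed the test (median log2 fold change -1.21). Markers enriched in hippocampus summed to 335 and 436 CPM, against 516 to 711 CPM in WT, so both G34W animals were below the WT range. Blood markers summed to 431 and 195 CPM, against 151 to 342 CPM. Markers of the cortical layers were detected in every animal. Upper-layer markers summed to 985 and 1173 CPM, against 1003 to 1057 CPM in WT. Replicate 1 was thus below and replicate 2 above the WT range. Deep-layer markers summed to 795 and 800.4 CPM, against 801 to 904 CPM, so both G34W animals were below the WT range, replicate 2 only just. In bulk tissue, fewer cells of a type and less RNA per cell cannot be told apart.

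**Figure D2:**
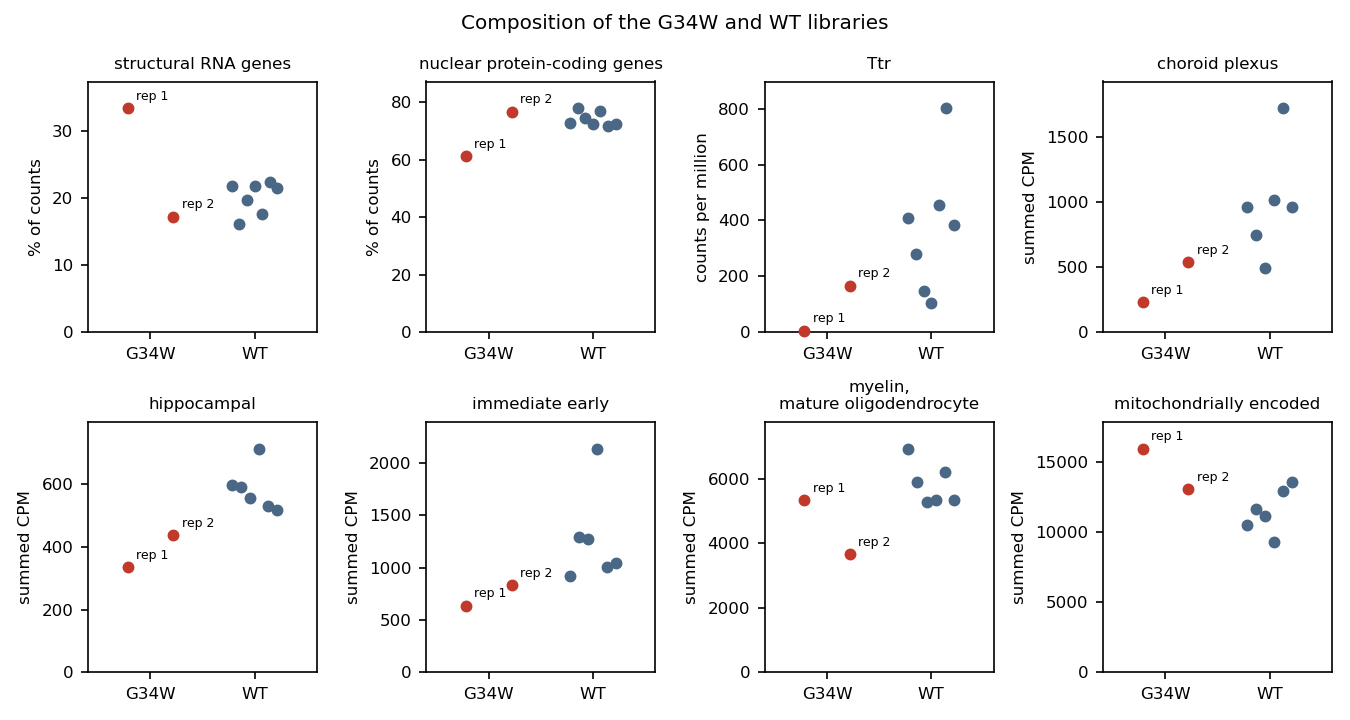
Composition of the G34W and WT libraries, with the share of counts in structural RNA and in nuclear protein-coding genes and Ttr in CPM of all counts (1 point per library), then summed CPM of marker lists (1 point per animal). Replicate 1 lies outside the WT libraries for structural RNA, at 33.3%, and for Ttr, at 5.76, and both G34W animals lie below the WT animals for hippocampal and immediate early genes.

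Among 21269 genes tested with edgeR's quasi-likelihood test, 342 (1.61%) passed a Benjamini-Hochberg adjusted p of 0.05. Of these 120 (0.564%) were higher and 222 (1.04%) lower in G34W, and 74 changed at least 2-fold, 34 upward and 40 downward. The median size of the log2 fold change among the called genes was 0.63, and the median log2 fold change of all genes was 0.01. For each of the 342, both G34W animals lay outside the range of the 6 WT animals on the same side, which was so for 16.3% of all genes tested (7.37% above and 8.91% below). The count was 219 without WT replicate 1 and lay between 239 and 384 without any other WT animal.

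The calls leaned on replicate 1. With replicate 1 as the only G34W animal 610 genes (2.77%) passed, and with replicate 2 as the only one 52 genes (0.236%) passed. Of the 342 genes, 178 passed with replicate 1 alone, 35 with replicate 2 alone and 26 (0.122% of those tested) with each animal alone. Of these 26, 7 were higher and 19 lower in G34W. They kept their calls without any 1 of the WT animals and under RLE scaling.

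**Figure D3:**
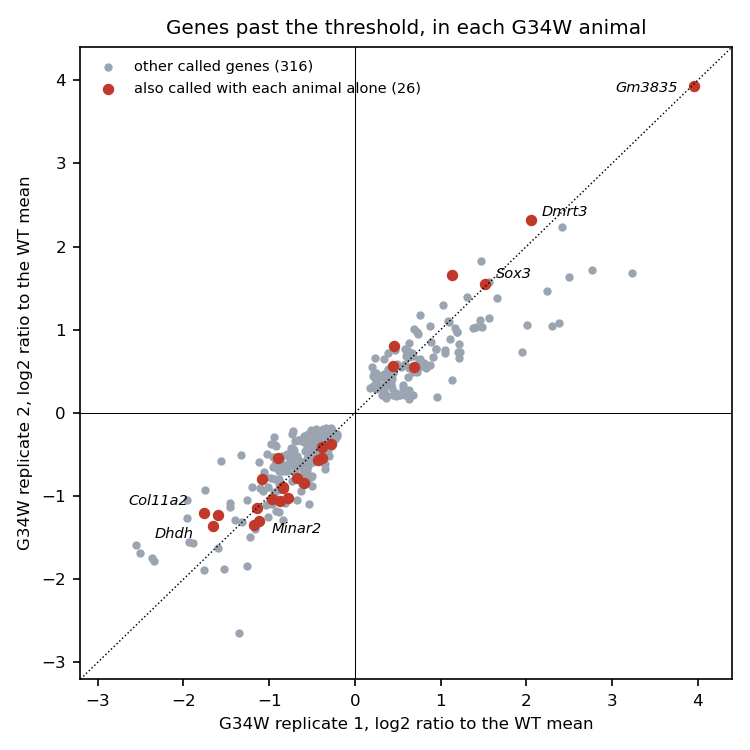
Log2 ratio of each called gene to the WT mean (0.1 CPM added) in G34W replicate 1 (horizontal) and replicate 2 (vertical), with the dotted line at equal ratios. The 342 called genes lie in the 2 quadrants of equal sign, and the 26 called with each animal alone are in red.

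Among the 7 genes that rose in each animal, after Gm3835, were genes of transcription factors. Dmrt3, a doublesex-related transcription factor gene with a role in spinal and forebrain development, was at 1.09 and 1.33 CPM in G34W, against 0.11 to 0.329 CPM in WT with a median of 0.161. Its log2 fold change was 2.63 (SE 0.367, edgeR adjusted p = 0.00206). Sox3, a SOXB1 factor gene of neural progenitors on the X chromosome, was at 1.82 and 1.85 CPM, against 0.461 to 0.62 CPM with a median of 0.594 (log2 fold change 1.70, SE 0.214, adjusted p = 0.00107). Both factors were low but well separated from WT in the male and in the female animal.

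Ahi1, the gene of a protein of the ciliary transition zone, was at 209 and 188 CPM in G34W, against 116 to 148 CPM in WT with a median of 126 (log2 fold change 0.62, SE 0.0846, edgeR adjusted p = 0.00164). Dnah1, an axonemal dynein heavy chain gene, was at 13.1 and 16.6 CPM, against 8.4 to 10.5 CPM with a median of 9.52 (0.66, SE 0.0996, adjusted p = 0.0031). Ependymal markers, a group with motile cilia, summed to 57.6 and 65.4 CPM, against 63.7 to 79.7 CPM in WT, and 0 of 14 passed. Gfap, which also rose in each animal, is described with the glial genes.

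The 19 genes that fell in each animal included enzymes, a collagen and signalling genes. Minar2 was at 7.13 and 6.3 CPM in G34W, against 14.8 to 16.6 CPM in WT with a median of 15.6. Its log2 fold change of -1.22 (SE 0.103) had the smallest adjusted p of the comparison (edgeR, 2.12e-05). Bok, a pro-apoptotic member of the BCL-2 family, was at 20.7 and 19.6 CPM, against 38.8 to 43.2 CPM with a median of 40.4 (-1.01, SE 0.101, adjusted p = 0.000154). The WT animals spread little in both genes, and both G34W animals were at about the same low level.

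Col11a2, a fibrillar collagen gene better known from cartilage, was at 4.69 and 6.94 CPM in G34W, against 14.5 to 18.1 CPM in WT with a median of 16.1 (log2 fold change -1.46, SE 0.155, edgeR adjusted p = 0.000233). Dhdh, which encodes dihydrodiol dehydrogenase, was at 2.51 and 3.11 CPM, against 7.41 to 8.66 CPM with a median of 8.25 (-1.52, SE 0.191, adjusted p = 0.00107). Tmem144 was at 2.58 and 3.35 CPM, against 6.44 to 9.39 CPM with a median of 8.01 (-1.42, SE 0.163, adjusted p = 0.000558). None of these 3 genes overlapped between the groups, and the lower G34W animal was replicate 1 in each.

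Among lipid genes, Hrasls, an acyltransferase and phospholipase of the PLAAT family, was at 8.04 and 7.13 CPM in G34W, against 16.8 to 20.8 CPM in WT with a median of 17.7 (log2 fold change -1.27, SE 0.182, edgeR adjusted p = 0.00272). Acsl5, which activates long-chain fatty acids with coenzyme A, was at 40.8 and 52.1 CPM, against 69 to 86.1 CPM with a median of 76.6 (-0.71, SE 0.0927, adjusted p = 0.00141). The guanine nucleotide exchange factor gene Arhgef15 fell by 0.93 on the log2 scale (SE 0.126), and the receptor gene Il17ra, whose product binds interleukin-17, fell by 0.88 (SE 0.111). Orai3, a store-operated calcium channel gene, fell by 0.72 (SE 0.119).

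Of 2 genes of the TCEAL family on the X chromosome in this set, Tceal1 fell by 0.97 (SE 0.13) and Tceal8 by 0.47 (SE 0.075) on the log2 scale. Others that fell were Fbxo27, a substrate receptor of SCF ubiquitin ligases (-1.17), the zinc finger gene Zfp941 (-0.87), Zdhhc1 of the DHHC palmitoyltransferase family (-0.74), the haem-binding protein gene Hebp1 (-0.50), 5730409E04Rik (-0.40) and Nudt3, an inositol phosphate hydrolase (-0.33). Nudt3 was the most abundant of the 19, at 239 and 223 CPM in G34W, against 271 to 301 CPM in WT.

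**Figure D4:**
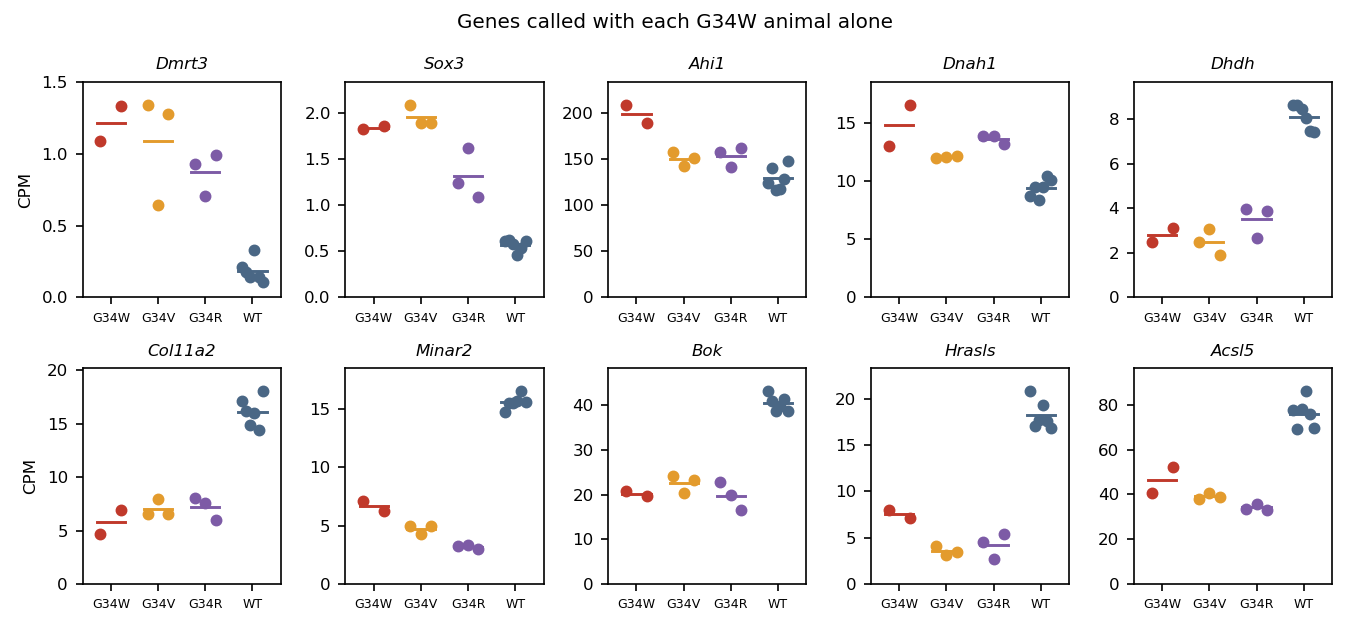
Levels in CPM of 10 of the 26 genes called with each G34W animal alone, with 1 point per animal and a line at each group mean (2 G34W, 3 G34V, 3 G34R and 6 WT animals). In none of the 10 do the G34W and WT animals overlap, as for Dmrt3 at 1.09 and 1.33 CPM in G34W against at most 0.329 CPM in WT.

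With a block for animals numbered consecutively, 72 genes passed, 52 of them among the 342, and 20 of the 26 kept their calls. The 6 that did not were Dnah1, Gfap, Hebp1, Nudt3, Orai3 and Tceal8 (edgeR adjusted p = 0.102, 0.06, 0.0959, 0.066, 0.0626 and 0.0589). Of the 69 called genes named in the text, 31 kept their calls under this block and 38 did not. Among the 38 were Itgax, Fcrls, Tlr2, C1s1, Neurog2 and Casz1 (edgeR adjusted p = 0.108, 0.103, 0.267, 0.14, 0.331 and 0.206). Both G34W animals and WT replicates 5 and 6 carried consecutive numbers. Against those 2 WT animals alone 6 genes passed, among them Gm3835, Minar2, Bok and Hrasls of the 26.

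A few microglial activation genes were higher in G34W, with replicate 1 the higher animal. Disease-associated microglia were represented by 24 genes, of which 4 rose and 0 fell, with a median log2 fold change of 0.11. By sign alone 13 of the 24 were positive and 11 negative. The 24 genes summed to 1974 and 1865 CPM in G34W, against 1914 to 2075 CPM in WT. By this sum replicate 1 was inside the WT range and replicate 2 below it. Cst7, which encodes the protease inhibitor cystatin F, was at 0.691 and 0.333 CPM in G34W, against 0 to 0.0886 CPM in WT with a median of 0.034 (log2 fold change 3.56, SE 0.497, edgeR adjusted p = 0.00206). Clec7a, the receptor gene for beta-glucans, was at 2.76 and 1.28 CPM, against 0.133 to 0.483 CPM with a median of 0.321 (2.65, SE 0.423, adjusted p = 0.00787). Itgax, the CD11c integrin gene, was at 1.38 and 0.76 CPM, against 0.125 to 0.385 CPM with a median of 0.187 (2.31, SE 0.352, adjusted p = 0.0031). In these 3 genes replicate 1 was the higher animal, and replicate 2 was also above every WT animal.

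With replicate 2 alone, none of the 3 passed (edgeR adjusted p = 0.0522 for Cst7, 0.118 for Clec7a and 0.0912 for Itgax). Cd68, the gene of a lysosomal glycoprotein of macrophages, was at 7.89 and 6.99 CPM in G34W, against 4.35 to 5.12 CPM in WT (0.64, SE 0.115, adjusted p = 0.0111, and 0.126 with replicate 2 alone). Of 15 homeostatic microglial genes 1 rose, Fcrls, at 35.3 and 29.3 CPM, against 14 to 24 CPM (0.70, SE 0.139, adjusted p = 0.0211). Csf1r, the receptor gene on which microglia depend, was at 114 and 109.7 CPM, against 91.1 to 98.3 CPM, and did not pass (0.23, SE 0.0664, adjusted p = 0.0924). Summed over the list, homeostatic genes were at 496 and 452 CPM, against 407 to 442 CPM.

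Of 23 lysosomal and phagocytic genes 3 rose, with a list median of -0.01. Lyz2, the macrophage lysozyme gene, was at 13.3 and 9.36 CPM in G34W, against 4.84 to 6.59 CPM in WT (log2 fold change 1.01, SE 0.158, edgeR adjusted p = 0.00479). Fcgr2b, an inhibitory Fc receptor gene, was at 5.13 and 4.37 CPM, against 1.63 to 3.04 CPM (1.11, SE 0.199, adjusted p = 0.0104). Abca1, the cholesterol exporter gene, rose by 0.44 (SE 0.102, adjusted p = 0.042), a call that ended without any 1 of WT replicates 1 to 4 (adjusted p = 0.0513 to 0.0718). The Toll-like receptor gene Tlr2 was at 2.51 and 1.9 CPM, against 0.819 to 1.43 CPM (1.11, SE 0.229, adjusted p = 0.0219).

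Complement genes were mostly above zero, with 17 of 20 positive and a median log2 fold change of 0.37, and 2 rose. C4b was at 46.4 and 46 CPM in G34W, against 17 to 28.6 CPM in WT with a median of 20.6 (1.10, SE 0.197, edgeR adjusted p = 0.0202). This value is uncertain, since the sources used do not say how reads matching both C4b and its near copy C4a were counted. C1s1, the gene of the protease C1s, was at 2.07 and 1.57 CPM, against 0.505 to 0.887 CPM (1.34, SE 0.285, adjusted p = 0.0245). C3 was at 1.24 and 0.998 CPM, against 0.257 to 0.772 CPM, and did not pass (1.14, SE 0.365, adjusted p = 0.126). None of 26 interferon response genes passed (median 0.25), nor of 15 genes of class I antigen presentation (median 0.30, with 0.44 in replicate 1 and 0.03 in replicate 2).

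Gfap, the intermediate filament gene of astrocytes, was at 165 and 181 CPM in G34W, against 107 to 136 CPM in WT with a median of 122 (log2 fold change 0.51, SE 0.0848, edgeR adjusted p = 0.0069). Unlike the microglial genes it passed with each animal alone (adjusted p = 0.0423 and 0.0396). It was the 1 of 26 reactive astrocyte genes that rose, and Cd109 was the 1 that fell (-1.10, SE 0.232, adjusted p = 0.0235). The homeostatic astrocyte list had 1 of 18 higher, the bicarbonate cotransporter gene Slc4a4, at 211 and 229 CPM, against 149 to 193 CPM (0.41, SE 0.0837, adjusted p = 0.0219).

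**Figure D5:**
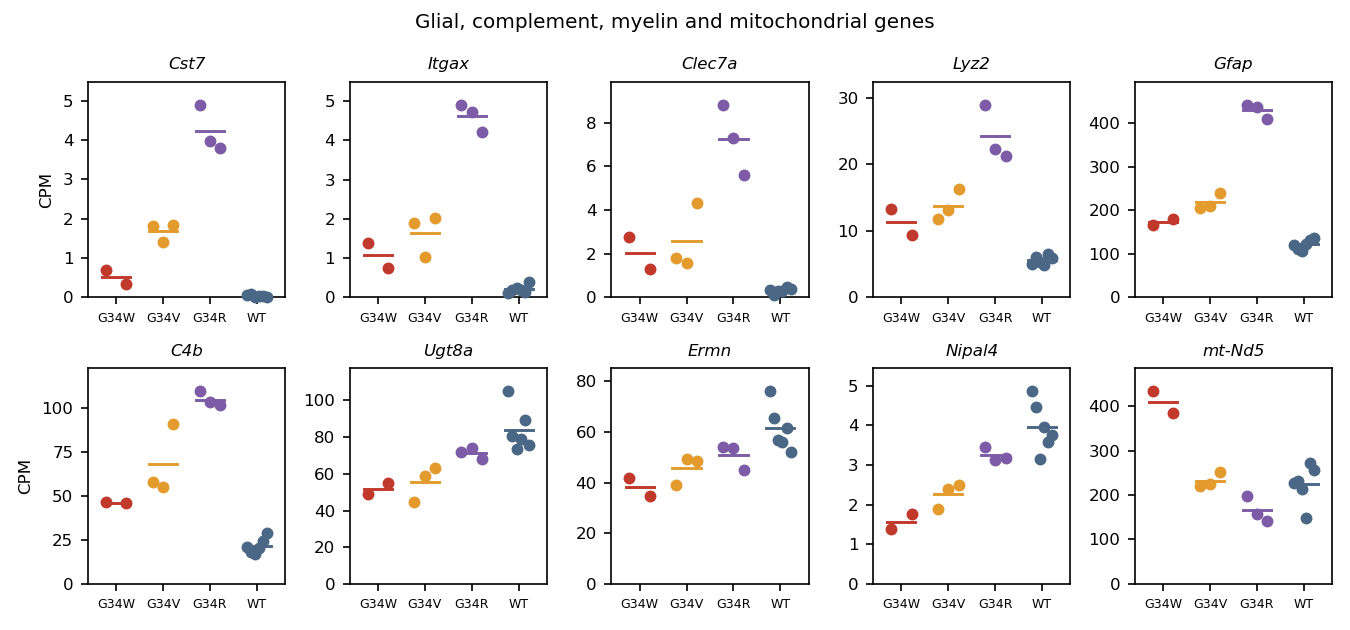
Levels in CPM of microglial, astrocyte, complement, myelin and mitochondrial genes, with 1 point per animal and a line at each group mean (2 G34W, 3 G34V, 3 G34R and 6 WT animals). Cst7, Itgax, Clec7a and Lyz2 were higher in replicate 1 than in replicate 2 of G34W, and both were above the 6 WT animals. The G34R animals stood highest in the 6 glial and complement genes.

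Some myelin genes were lower in G34W, and over the list replicate 2 was the lower animal. Of 26 genes of mature oligodendrocytes 6 fell and 0 rose. The median log2 fold change was -0.44, and the median log2 ratio to the WT mean was -0.26 in replicate 1 and -0.69 in replicate 2. Summed, they were at 5325 and 3664 CPM in G34W, against a lowest of 5282, a median of 5611 and a highest of 6928 CPM in WT, so replicate 1 was inside the WT range and replicate 2 below it.

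Ugt8a, which makes galactosylceramide, was at 49 and 54.8 CPM in G34W, against 73.3 to 105 CPM in WT (log2 fold change -0.69 with an SE of 0.138, adjusted p = 0.0235 in edgeR), and Gal3st1, which turns it into sulfatide, was at 6.18 and 5.16 CPM, against 8.04 to 11.3 CPM (-0.65, SE 0.15, adjusted p = 0.0388, or 0.0653 without WT replicate 4). Both enzymes act in the same path of myelin lipid synthesis. Nipal4 was at 1.38 and 1.76 CPM, against 3.15 to 4.86 CPM (-1.32, SE 0.202, adjusted p = 0.00329). Ermn, a cytoskeletal gene of oligodendrocytes, and the protease gene Klk6 also fell, by 0.68 and 1.18 on the log2 scale.

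Other myelin genes parted between the animals. Mbp, the myelin basic protein gene, was at 1599 and 1011 CPM in G34W, against 1489 to 2048 CPM in WT, and Mobp at 995 and 452 CPM, against 533 to 757 CPM, so that replicate 1 was above and replicate 2 below every WT animal for Mobp. Neither passed (edgeR adjusted p = 0.274 for Mbp and 0.789 for Mobp). With replicate 1 alone 1 of the 26 myelin genes was lower, and with replicate 2 alone 0 were. Of 13 genes of oligodendrocyte precursors and premyelinating cells 0 passed, with a median of -0.06.

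Of 21 cholesterol synthesis genes 20 had a negative log2 fold change, with a median of -0.20. Summed, they were at 1091 and 1118 CPM in G34W, against 1219 to 1373 CPM in WT, so both animals were below the WT range. Only Insig1, a sterol sensor gene of the endoplasmic reticulum, passed, at 62.5 and 62.4 CPM, against 75 to 91.5 CPM (-0.36, SE 0.0815, edgeR adjusted p = 0.0367). Its call ended without WT replicate 1, 3 or 5 (adjusted p = 0.052, 0.0521 and 0.0608). The synthase gene Hmgcs1 was at 251 and 256 CPM, against 283 to 353 CPM, and did not pass (-0.32, SE 0.0889, adjusted p = 0.0855).

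Genes induced by neuronal activity summed below the WT range in both G34W animals. All 22 immediate early genes had negative log2 fold changes, with a median of -0.81, but 1 passed. Their sum was 636 and 833 CPM in G34W, against a lowest of 921, a median of 1158 and a highest of 2134 CPM in WT. That gene was Bdnf, which encodes the neurotrophin BDNF, at 13.6 and 19.7 CPM, against 25.4 to 38.3 CPM with a median of 28.2 (-0.82, SE 0.185, edgeR adjusted p = 0.0427). Its call ended without WT replicate 1, 2 or 3 (adjusted p = 0.0619, 0.0692 and 0.0689). Arc, an activity-regulated gene of synapses, was at 92.7 and 151 CPM, against 170.3 to 677 CPM, and Egr1, an activity-induced zinc finger gene, was at 46.5 and 57.9 CPM, against 67.1 to 133 CPM. Neither passed (adjusted p = 0.252 and 0.293), and the WT animals themselves spread widely.

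Few neuronal identity genes passed the test. Lamp5, a marker of upper-layer and neurogliaform neurons, was at 68.1 and 70.9 CPM in G34W, against 91 to 120.2 CPM in WT with a median of 108 (log2 fold change -0.61, SE 0.0909, edgeR adjusted p = 0.00289). Rorb, a factor gene of the granular layer, was higher, at 73.7 and 94.2 CPM, against 59.9 to 69.4 CPM (0.39, SE 0.0917, adjusted p = 0.0405), and its call ended without any 1 of WT replicates 1, 3, 4, 5 and 6 (adjusted p = 0.0511 to 0.0688). Otof, a gene of the otoferlin calcium sensor, was at 27.9 and 31.4 CPM, against 10.9 to 20.7 CPM (0.98, SE 0.22, adjusted p = 0.0481), and it lost its call without any 1 of WT replicates 1 to 5 (adjusted p = 0.0506 to 0.0884). In all, 2 of 16 upper-layer genes rose and 1 fell, with a list median of 0.12.

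Among 20 deep-layer genes 18 were negative (median -0.10) and 1 fell, Fam84b (-0.57, SE 0.121, edgeR adjusted p = 0.0235). Fezf2, the factor gene that specifies subcerebral projection neurons, was at 10.8 and 11.6 CPM, against 11.8 to 19.9 CPM in WT, and did not pass (-0.59, SE 0.148, adjusted p = 0.0536). Of 22 interneuron genes 1 fell, the neuropeptide gene Npy, at 29.8 and 31.5 CPM, against 35.7 to 47.4 CPM (-0.43, SE 0.091, adjusted p = 0.024). The other neuropeptide gene that passed, Nts for neurotensin, was higher, at 7.05 and 5.06 CPM, against 2.49 to 3.63 CPM (log2 fold change of 1, SE 0.189, adjusted p = 0.0134).

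Neurod6, a factor gene of pyramidal neurons, was at 29.2 and 37 CPM in G34W, against 47.3 to 66 CPM in WT (-0.67, SE 0.113, edgeR adjusted p = 0.00822), and Dkk3, which encodes a secreted Dickkopf protein, was at 173 and 194 CPM, against 243 to 405 CPM (-0.78, SE 0.143, adjusted p = 0.0169). Both belong to the hippocampal list, whose sum was below the WT range in both animals, and the part of tissue sampling in these changes was not tested. The serotonin receptor gene Htr5b was at 0.4 and 0.523 CPM, against 1.46 to 2.53 CPM (-1.89, SE 0.369, adjusted p = 0.0169). Rgs16, a regulator of G protein signalling found in thalamus and cortex, was at 2.69 and 2.71 CPM, against 4.57 to 9.99 CPM (-1.35, SE 0.248, adjusted p = 0.0129). None of 26 ion channel, 23 presynaptic or 37 chromatin regulator genes passed, with medians of 0.09, -0.03 and 0.03.

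All 13 protein-coding genes of the mitochondrial genome had a positive log2 fold change, with a median of 0.49, and 1 passed. Their sum was 15921 and 13028 CPM in G34W, against 9241 to 13568 CPM in WT, so replicate 2 was inside the WT range. WT replicates 5 and 6, numbered consecutively with the G34W animals, were at 12938 and 13568 CPM. WT replicates 1 to 4 were at 9241 to 11597 CPM. mt-Nd5, a subunit gene of complex I, was at 434 and 384 CPM, against 147 to 273 CPM (0.86, SE 0.18, edgeR adjusted p = 0.0376). The call ended without WT replicate 1, 2 or 3 (adjusted p = 0.0664, 0.0606 and 0.0691). Nuclear genes of oxidative phosphorylation had a median of 0.02 and 0 of 25 passed.

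Of 33 developmental factor genes tested, Dmrt3, Sox3 and Neurog2 rose and Casz1 fell, with a list median of -0.01. Neurog2, a proneural factor gene, was at 1.24 and 0.998 CPM in G34W, against 0.214 to 0.496 CPM in WT (log2 fold change 1.81, SE 0.373, edgeR adjusted p = 0.0219). Casz1, a zinc finger factor gene of neural fate, was at 2.98 and 3.26 CPM, against 4.16 to 7.05 CPM (-0.97, SE 0.205, adjusted p = 0.0235). For these 4 genes neither G34W animal overlapped with WT. With the block of animal numbers Dmrt3 and Sox3 kept their calls (edgeR adjusted p = 0.0338 and 0.0432). Neurog2 and Casz1 did not (adjusted p = 0.331 and 0.206).

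Of 29 imprinted genes 3 rose, with a list median of 0.13. Rian, a maternally expressed long RNA of the Dlk1-Meg3 cluster, was at 342 and 309 CPM in G34W, against 256 to 281 CPM in WT (log2 fold change 0.30, SE 0.0579, edgeR adjusted p = 0.0169). Usp29, a paternally expressed gene beside Peg3, was at 29.2 and 28.6 CPM, against 19.5 to 26.1 CPM (0.42, SE 0.0904, adjusted p = 0.0266). Magel2, of the Prader-Willi region, rose by 1.38 (SE 0.323, adjusted p = 0.0396), and its call ended without WT replicate 1, 3 or 4 (adjusted p = 0.0673, 0.0574 and 0.0546). All 16 clustered protocadherin genes were positive, with a median of 0.22. The 1 that passed was Pcdhb9, at 21.9 and 19.2 CPM, against 13.7 to 15.8 CPM (0.53, SE 0.0898, adjusted p = 0.00771).

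Further genes that passed the test had other roles. Col6a1, a collagen VI gene, was at 17.4 and 17.4 CPM in G34W, against 7.93 to 12.5 CPM in WT (log2 fold change 0.70, SE 0.132, edgeR adjusted p = 0.0145). Linker histone gene H1f0 was at 53.3 and 55.6 CPM, against 67.8 to 76.4 CPM (-0.40, SE 0.0625, adjusted p = 0.00428), and the stress response factor gene Atf4 was at 66.2 and 65.1 CPM, against 78.9 to 108 CPM (-0.48, SE 0.0885, adjusted p = 0.0121). Sowahb was at 5.24 and 6.84 CPM, against 15.3 to 25.8 CPM (-1.74, SE 0.228, adjusted p = 0.00252).

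Some called genes differed widely between the 2 G34W animals. Fam107a, a gene of astrocytes induced by glucocorticoids, was at 510 CPM in replicate 1 and 299 CPM in replicate 2, against 235 to 290.4 CPM in WT (0.63 on the log2 scale, SE 0.138, adjusted p = 0.0397 in edgeR, or 0.496 with replicate 2 alone). Smyd1, a muscle methyltransferase gene, was at 5.2 and 2.19 CPM, against 0.748 to 2.09 CPM (1.53, SE 0.354, adjusted p = 0.04, and 0.485 with replicate 2 alone). Anxa11, an annexin gene, was at 4.07 and 7.25 CPM, against 9.41 to 11.4 CPM (-0.85, SE 0.162, adjusted p = 0.0145, and 0.139 with replicate 2 alone). In these 3 genes replicate 1 was the more distant animal, and replicate 2 lay closer to the WT range. Of the 342 genes 6 differed at least 2-fold between the animals, and 201 were farther from the WT mean in replicate 1. The calls of Fam107a and Smyd1 also ended without single WT animals (adjusted p up to 0.0815 and 0.072).

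Direct comparison with the other substitutions used the same fit, and these groups share no animals. They share no run of consecutive animal numbers either, and G34W replicate 2 was the only female among them. Substitution, number run and, for that animal, sex cannot be told apart in these differences. Against G34V 32 genes (0.15%) passed and against G34R 400 (1.88%). Among the 342 genes chosen for their difference from WT, 9 differed from G34V and 74 from G34R. Sfmbt2, a polycomb group gene, averaged 8.16 ± 0.591 CPM in G34W (SD, n = 2) and 3.72 ± 0.504 CPM in G34V (n = 3), with 3.76 ± 0.726 CPM in WT (n = 6). The log2 difference between G34W and G34V was 1.13 (SE 0.187, adjusted p = 0.017 in edgeR).

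Set against G34R, Gfap averaged 173 ± 10.8 CPM in G34W and 429 ± 17.3 CPM in G34R (difference -1.31, SE 0.101, edgeR adjusted p = 5.70e-06). Cst7 averaged 0.512 ± 0.253 CPM in G34W and 4.22 ± 0.596 CPM in G34R (-3.10, SE 0.41, adjusted p = 0.00118). Minar2, lower than WT in G34W, was lower still in G34R, with 6.71 ± 0.587 and 3.18 ± 0.2 CPM (1.07, SE 0.112, adjusted p = 0.000139). The differences between G34W and G34V did not pass for Gfap (-0.33, SE 0.0981, adjusted p = 0.188), Cst7 (-1.78, SE 0.409, adjusted p = 0.0901) or Minar2 (0.50, SE 0.111, adjusted p = 0.08).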

How the data were processed

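The authors deposited raw counts per Ensembl gene for 23 libraries. Per the labels' protocols, total RNA of pulverised cortex was depleted of ribosomal RNA. Per the submitters' processing notes the build was mm10 and the tools named are featureCounts 1.4.4, STAR 2.3.0e, Trimmomatic 0.32 and bedtools 2.27.1. Which annotation release was counted, on which strand, and how reads matching several genes were treated is not given in the sources used here. Names and coordinates came from GENCODE M21 (GRCm38) for 37693 of 39017 genes, and 1324 had no entry.

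Groups followed the labels, whose animal numbers mark separate animals. Counts of the 14 animals of 10 weeks, without 180 sex-specific genes, were fitted by group with edgeR 4.0.16 (filterByExpr, TMM, robust quasi-likelihood, 10 residual degrees of freedom) in R 4.3.3. The SE is the size of the log2 fold change divided by the square root of F. CPM are on 1 TMM scale over the 14 animals. Counting noise is one part of the spread, and deeper libraries carry less of it. The fit was tested on simulated data with known changes.

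The members, the 42 gene lists and the tests were chosen with earlier results of these data known. The rule for named genes took H3f3a, up to 15 called genes per direction with the largest change, at least 1 CPM and both G34W animals outside the WT range, up to 3 genes per list by smallest adjusted p, and up to 5 called genes per direction with the largest ratio between the G34W animals. Some genes that the rule took are not reported here. Named after their values were seen were the genes called with each G34W animal alone that fall outside this rule, all called members of a list with more than 3, Mbp, Mobp, Arc, Egr1, H3f3a-ps2 and Sfmbt2.

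Alternatives were RLE scaling, other filters, DESeq2 1.42.0, limma-voom (limma 3.58.1) with quality weights, other gene sets, only the WT and G34W animals, a block of consecutive animal numbers, sex as a covariate, the 2 libraries of WT replicate 3 kept apart, and each animal left out. Leaving out small structural RNA genes, using only libraries of higher mitochondrial share and using only WT replicates 5 and 6 were chosen after seeing the data.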

Additional observations from a re-analysis of the deposited data

Results flagged for a closer look

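Of 79 genes named in the text, 6 had 1 WT animal far above the other 5, where chance alone gives such a gap in about 1 of 20 groups. WT replicate 4 was highest for Arc, at 677 CPM, and for Neurod6, at 66 CPM. WT replicate 1 was highest for Gal3st1, at 11.3 CPM, and for Pcdhb9, at 15.8 CPM. Tlr2 was at 1.43 CPM in WT replicate 6 and Usp29 at 26.1 CPM in WT replicate 2. Without the WT animal concerned, the 5 called genes among them kept their calls.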

How the results depend on the processing

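The count of 342 called genes (120 higher, 222 lower) stayed within 1.5 times under RLE scaling, both other filters, with mitochondrial and ribosomal RNA genes left out, with sex-specific genes kept, and with the 2 libraries of WT replicate 3 apart. DESeq2 called 914 (344 higher, 570 lower), of which 336 were among the 342. limma-voom with quality weights called 28 (9 higher, 19 lower), all among the 342. A fit of only the WT and G34W animals called 145 (45 higher, 100 lower), 134 of them shared. The block of animal numbers called 72 (35 higher, 37 lower), 52 of them shared. The sex label as a covariate called 631 (340 higher), 182 of them shared. As 1 animal of the 14 was female, this covariate removes that G34W animal from the comparison.

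Without single animals the count ranged from 52 to 610 (20 to 319 higher, 32 to 291 lower). Of alternatives chosen after seeing the data, libraries of higher mitochondrial share (at least 1.07% of counts in mitochondrial protein-coding genes, 9 libraries) called 91 (34 higher, 57 lower), 81 of them shared. Against only WT replicates 5 and 6 there were 6 calls (1 higher, 5 lower), 5 of them shared. That fit held no animals besides these and the 2 G34W animals, so it had less power. The log2 fold change of H3f3a turned to 0.01 with sex as a covariate, and without single animals it ranged from -0.24 to 0.01. That of Mobp ranged from -0.53 to 0.62. Of the 69 called genes named in the text, 68 kept their calls with DESeq2, 22 with limma-voom, 25 without G34W replicate 1 and 53 without G34W replicate 2. The block of animal numbers kept 31 and ended 38, only the WT and G34W animals kept 47, the sex covariate 53, libraries of higher mitochondrial share 37 and only WT replicates 5 and 6 kept 5. Under the 7 other changes of scaling, filter, gene set or library, 65 to 69 kept their calls, and without single WT animals 60 to 68 did.

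No paired analysis was possible because the labels give the groups no shared replicate numbers, and the block of consecutive animal numbers above was fitted in its place. With 2 G34W animals, 1 of them female and 1 with a distinct library, a gene that missed the threshold was not shown to be unaffected. Calls below about 1 CPM rest on few reads.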
